A study of Mus musculus with 5 samples.

Results

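The insulin-like growth factor (IGF) system was followed in cultured mouse epidermal stem cells through 10 genes chosen by symbol from a deposited table of 17657 protein-coding genes. They are the ligand genes Igf1 and Igf2, the receptor genes Igf1r and Igf2r, and the 6 binding protein genes Igfbp2, Igfbp3, Igfbp4, Igfbp5, Igfbp6 and Igfbp7. All 10 were in the table, and 8 of them had enough counts to be tested. The KO group (2 libraries, KO1 and KO2) came from Angptl4 knockout mice, and the WT group (3 libraries, WT1, WT2 and WT3) from wild-type mice. All mice were male C57BL/6, labelled 8 weeks, and the cells of both groups were taken from skin and cultured in KGM2, a keratinocyte growth medium. Angptl4 encodes a secreted protein that inhibits lipoprotein lipase, and the series title places the comparison in a study of how it affects the proliferation of these cells. No label states which exons the knockout removes. Nor does any label tie the libraries of a genotype to different animals or cultures, and the p-values then describe only the spread among these 5 libraries, which may be technical.

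Igf1 and Igf2 are small secreted relatives of insulin. Both activate the receptor tyrosine kinase encoded by Igf1r, which signals through insulin receptor substrates to PI3K and AKT and through RAS to MAP kinases, while the receptor encoded by Igf2r carries Igf2 to the lysosome. The binding proteins hold the ligands outside the cell, and proteases that cut them set the ligands free. In skin, dermal fibroblasts are a main source of Igf1, and basal keratinocytes carry the Igf1r receptor.

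Libraries held 20283084 to 20773407 expected counts, and levels are given as TPM (RNA abundance scaled by transcript length and library) or as CPM (counts scaled by library size). Angptl4 itself was at 0.86 and 1.11 TPM in KO1 and KO2, against 7.34, 6.09 and 4.34 TPM in WT1, WT2 and WT3. The log2 change was -2.56 ± 0.32 (SE; adjusted p = 0.00458, edgeR quasi-likelihood), but it did not pass when each group was given its own spread (adjusted p = 0.127). A list of 10 keratinocyte markers included the basal markers Krt5 and Krt14. Its summed TPM was 51464 and 39520 in KO1 and KO2 and 40595 to 41666 in WT. Of these 10 markers 3 rose, 2 fell and 5 did not pass, against 40.8% of all tested genes called. The KO libraries differed from each other more than the WT libraries did (biological coefficient of variation 28.9% in KO and 5.22% in WT). Markers of other cell types were counted beside a background of 40.8% of all tested genes called, 20.4% higher and 20.4% lower in KO. Of 12 fibroblast markers 9 were tested, of which 4 rose and 0 fell, with summed levels of 155 and 80.7 TPM in KO1 and KO2 and 62.9 to 71.0 TPM in WT. Of 10 pericyte and smooth muscle markers 7 were tested, of which 6 rose and 0 fell, with summed levels of 1868 and 714 TPM in KO1 and KO2 and 292 to 337 TPM in WT. No fibroblast or pericyte marker was at 0 in both KO libraries, and 1 fibroblast marker was at 0 in every WT library. Endothelial and melanocyte markers summed to low levels, and immune markers to higher ones. Of these lists 2 of 4, 1 of 6 and 1 of 4 tested markers rose and 1, 0 and 0 fell. They summed to 3.65, 8.0 and 66.3 TPM in KO1, to 3.13, 11 and 57.0 TPM in KO2, and to 2.78 to 3.06, 5.83 to 7.03 and 41.6 to 50.3 TPM in WT.

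Among the IGF genes, Igfbp2 alone passed the test between KO and WT. It rose 4.76-fold in KO cells, while Igfbp3, Igfbp4 and Igfbp7 took different levels in KO1 and KO2. In bulk samples a change in the number of cells of a type and a change in RNA per cell cannot be told apart. In all, 1 of 8 tested members rose, 0 fell and 7 did not pass (12.5% called), against 40.8% called over all 12957 tested genes. At an unadjusted p under 0.05 there were 2 members, Igfbp2 and Igfbp6. The median log2 change of the tested members was 0.62, against 0.02 over all tested genes. Fits without KO1 or KO2 keep a single KO library and take the spread from the WT libraries. Their counts of genes that passed are left out here and enter only the closing leave-one-out ranges. Leaving out any WT library left the number of members that passed at 1. Giving each group its own spread also left 1 member, against 24.6% of all tested genes called in that fit. Over all genes the number that passed, 5286, became 1957, 2282 and 2244 without WT1, WT2 or WT3, and 3192 in the fit with its own spread for each group.

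**Figure D1:**
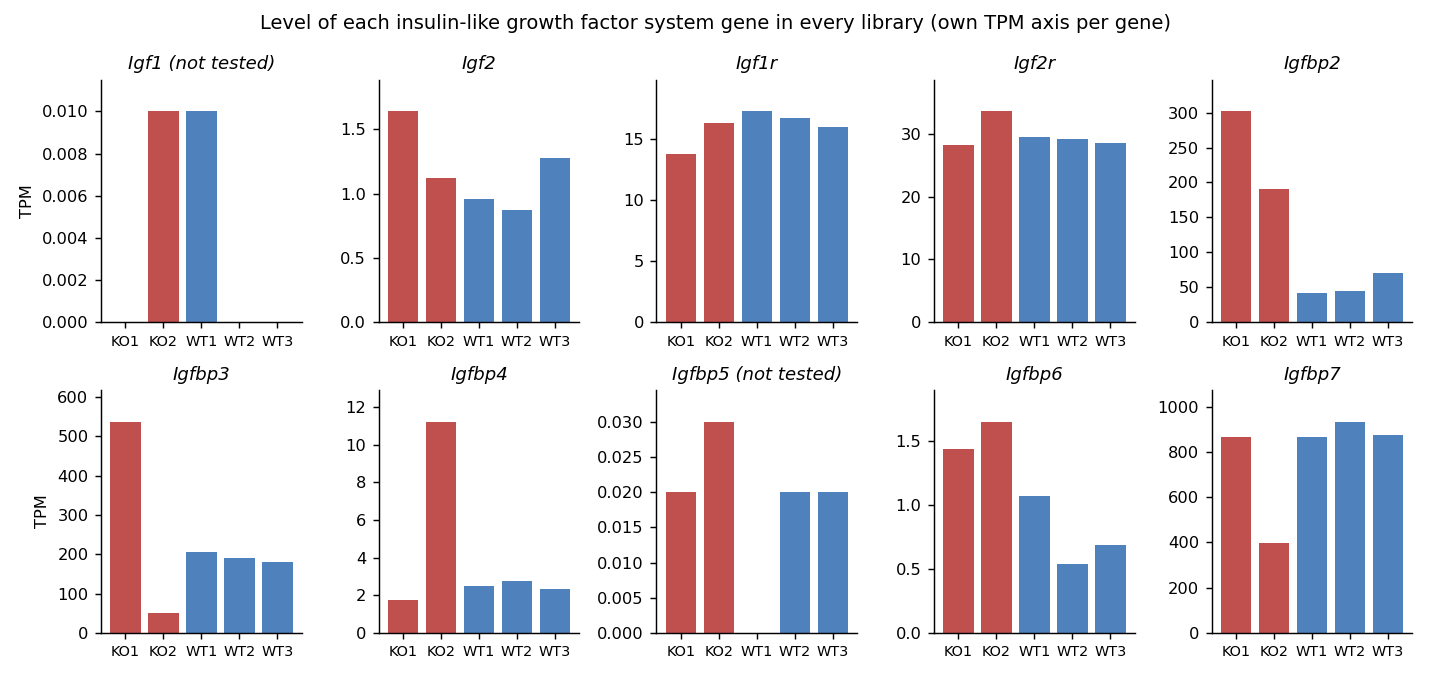
Level of each of the 10 genes in TPM (vertical axis, a separate scale for each gene) in KO1 and KO2 (red) and WT1, WT2 and WT3 (blue). Each bar is 1 library. Both KO bars stand above all WT bars for Igfbp2 and Igfbp6, and KO1 and KO2 lie on opposite sides of the WT bars for Igfbp3, Igfbp4 and, by a smaller distance, Igf2r.

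Ranked by TPM in WT cells, the order was Igfbp7, Igfbp3, Igfbp2, Igf2r, Igf1r, Igfbp4, Igf2, Igfbp6, and then Igfbp5 and Igf1 close to 0. The WT ranges of neighbours in this order overlapped for Igf2 and Igfbp6 and for Igfbp5 and Igf1. In KO cells the range of Igfbp3 spanned that of Igfbp2 and overlapped that of Igfbp7, while those of Igfbp7 and Igfbp2 did not overlap. The receptors thus lay below the 3 abundant binding proteins and above both ligands in all 5 libraries.

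The ligand genes were low or close to 0. Igf1 (NCBI gene 16000, chromosome 10, 87858265 to 87937047; coordinates here and below are the table's, on GRCm38.p6) had 0 and 1 counts in KO1 and KO2, against 1, 0 and 0 counts in WT1, WT2 and WT3. It was left out by the count filter, and a difference was not detectable at this depth. Igf2 (NCBI gene 16002, chromosome 7, 142650768 to 142670357), an imprinted fetal growth factor gene expressed from the paternal copy, had 67 and 42 counts in KO1 and KO2, against 30, 36 and 42 counts in WT1, WT2 and WT3. Only KO1 stood above the WT libraries. In TPM the values were 1.64 and 1.12 in KO1 and KO2, against 0.96, 0.87 and 1.28 in WT1, WT2 and WT3, so the groups overlapped on this scale too. The number of counts that made 1 TPM of Igf2 ranged from 31.2 to 41.4 between libraries, against 124 to 126 for Igf1r, so the length that RSEM estimated for Igf2 differed between libraries. Igf2 did not pass (log2 change 0.60 ± 0.30 (SE), 95% interval -0.15 to 1.36, adjusted p = 0.163, edgeR). Its log2 change was 0.21 without KO1 and 0.92 without KO2. The antisense gene Igf2os overlaps Igf2, and so do Gm49394 and Mir483 on the same strand. No source used here gives the strand setting of the counting, which would not separate partners on the same strand. Reads of such partners cannot be told apart.

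Neither receptor gene passed the test. Igf1r (NCBI gene 16001, chromosome 7, 67952257 to 68233668) was at 13.8 and 16.3 TPM in KO1 and KO2, against 17.3, 16.7 and 15.9 TPM in WT1, WT2 and WT3. KO1 was the lowest library and KO2 lay inside the WT range. The log2 change was -0.16 ± 0.09 (SE), with a 95% interval of -0.39 to 0.08 (adjusted p = 0.223, edgeR), and it was -0.27 without KO2. Igf2r (NCBI gene 16004, chromosome 17, 12682406 to 12830151), imprinted in the mouse with expression from the maternal copy, was at 28.3 and 33.6 TPM in KO1 and KO2, against 29.5, 29.2 and 28.5 TPM in WT1, WT2 and WT3. On the TPM scale KO2 was the highest library and KO1 the lowest. Its log2 change of 0.11 ± 0.09 (SE) had a 95% interval of -0.12 to 0.34 (adjusted p = 0.365, edgeR), and the change was 0.22 without KO1. For both receptors the intervals leave out a change of 2-fold in either direction. The antisense RNA gene Airn overlaps Igf2r.

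The insulin receptor gene Insr, whose product is the closest relative of the Igf1r receptor, was at 5.81 and 7.82 TPM in KO1 and KO2, against 3.69, 4.02 and 3.66 TPM in WT1, WT2 and WT3. It rose by 0.87 ± 0.14 (SE) on the log2 scale (adjusted p = 0.00896, edgeR), a call lost without WT1 (adjusted p = 0.0523, edgeR; range over its alternatives 1.79e-05 to 0.0523). The ratio of Igf1r to Insr TPM was 2.37 and 2.08 in KO1 and KO2 and 4.67, 4.15 and 4.36 in WT1, WT2 and WT3. The groups did not overlap in this ratio, which was not tested, and 66.4% of all tested genes had no overlap in CPM.

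The binding proteins share a fold that holds the ligand. In the table's protein family annotation 5 of the 6 carry the IGF binding protein domain (Igfbp6 is the exception) and 5 of the 6 the thyroglobulin type-1 repeat, which Igfbp7 lacks. Igfbp7 is annotated instead with a Kazal-type and an immunoglobulin domain. Igfbp2 and Igfbp5 are neighbours on chromosome 1, 5.59 kb apart and on opposite strands. The promoters of 4 binding protein genes are given here, because Igfbp2 moved alike in both KO libraries while Igfbp3, Igfbp4 and Igfbp7 did not. Each is the 250 bases before the RefSeq start on GRCm38.p6, 5′ to 3′. The Igfbp2 and Igfbp7 windows adjoin the table's bounds of these genes. Those of Igfbp3 and Igfbp4 lie inside the table's gene bounds, downstream of the 5′ end given there. Capitals mark matches on either strand to 3 motifs, namely the TATA box, searched as the letters TATAAA, the GC box, searched as the letters GGGCGG, and the pentamer CCAAT.
Igfbp2 (chr1:72824230-72824479, plus strand): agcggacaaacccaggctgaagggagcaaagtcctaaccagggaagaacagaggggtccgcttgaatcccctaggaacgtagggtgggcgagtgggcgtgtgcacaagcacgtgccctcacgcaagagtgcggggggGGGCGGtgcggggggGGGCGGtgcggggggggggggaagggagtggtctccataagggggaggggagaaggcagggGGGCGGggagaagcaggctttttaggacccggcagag
Igfbp3 (chr11:7213924-7214173, minus strand): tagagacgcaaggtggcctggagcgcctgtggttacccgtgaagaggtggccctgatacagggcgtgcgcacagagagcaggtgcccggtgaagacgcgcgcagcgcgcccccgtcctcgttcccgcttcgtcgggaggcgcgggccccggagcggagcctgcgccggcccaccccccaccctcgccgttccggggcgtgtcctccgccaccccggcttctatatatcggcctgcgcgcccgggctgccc
Igfbp4 (chr11:99040994-99041243, plus strand): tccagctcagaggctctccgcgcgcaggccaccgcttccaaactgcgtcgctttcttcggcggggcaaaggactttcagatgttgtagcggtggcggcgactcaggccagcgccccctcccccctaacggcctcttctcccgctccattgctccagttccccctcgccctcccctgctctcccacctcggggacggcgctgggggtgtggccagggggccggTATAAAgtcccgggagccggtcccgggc
Igfbp7 (chr5:77408046-77408295, minus strand): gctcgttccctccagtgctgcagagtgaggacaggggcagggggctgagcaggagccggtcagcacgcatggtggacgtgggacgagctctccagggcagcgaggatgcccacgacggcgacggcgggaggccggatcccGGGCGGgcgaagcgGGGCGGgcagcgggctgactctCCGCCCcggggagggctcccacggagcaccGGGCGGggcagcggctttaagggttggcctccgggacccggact
The windows of Igfbp2, Igfbp3, Igfbp4 and Igfbp7 hold 3, 0, 0 and 4 GC boxes. The Igfbp4 window holds a TATA box that begins 28 bases before the start, and none of the 4 holds the pentamer CCAAT. Over 32851 promoter windows of the same length, 12.4% hold a TATA box, 32.7% a GC box and 33.8% the pentamer, and matches to different motifs may overlap. CpG pairs number 14, 32, 22 and 26 in these windows, against a median of 6 over all windows. All 10 members had a promoter entry, and a second Igfbp2 start is listed downstream.

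Igfbp2 (NCBI gene 16008, chromosome 1, 72824480 to 72852474, plus strand) encodes a binding protein that prefers Igf2 and carries an integrin-binding motif. It was at 302 and 191 TPM in KO1 and KO2, against 42.1, 44.6 and 70.8 TPM in WT1, WT2 and WT3, from 3982 and 2458 counts in KO and 522, 574 and 942 counts in WT. Both KO libraries lay above every WT library, and WT3 was the highest of the WT libraries. Igfbp2 rose by 2.25 ± 0.33 (SE) in log2 terms, 4.76-fold with a 95% interval of 2.70 to 8.39 (adjusted p = 0.00639, edgeR). It was higher in both KO libraries, 5.91-fold in KO1 and 3.60-fold in KO2 over the WT mean. The call held in all 16 alternative settings, with the log2 change between 1.84 and 2.57 when 1 library was left out and an adjusted p of up to 0.0388 (edgeR). The part of the fibroblast and pericyte markers given above in this rise was not tested. The 3 tested genes whose profile over the 5 libraries lay closest to that of Igfbp2 were Vcan, which encodes the matrix proteoglycan versican, Gm2808 and Rhbdl3, with root mean square differences of 0.16, 0.19 and 0.21 on the log2 CPM scale. Vcan was at 2.44 and 1.36 TPM in KO1 and KO2, against 0.24, 0.26 and 0.49 TPM in WT1, WT2 and WT3.

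Igfbp3 (NCBI gene 16009, chromosome 11, 7206086 to 7215498, minus strand) encodes the main carrier of the ligands in blood and is known from the basal layer of human epidermis. It was at 536 and 49.3 TPM in KO1 and KO2, against 204, 189 and 180 TPM in WT1, WT2 and WT3. KO1 was the highest and KO2 the lowest of all libraries, 10.9-fold apart in CPM, while the WT libraries stayed within 1.14-fold. A ratio between KO1 and KO2 of this size or more was found for 0.247% of all tested genes. Between the groups Igfbp3 did not pass (log2 change 0.64 ± 0.86 (SE), 95% interval -1.52 to 2.80, adjusted p = 0.58, edgeR). Without KO1 it changed by -1.94 and without KO2 by 1.52, so its direction was set by the KO library kept. With limma, on voom values or log2 TPM, the change was -0.21 to -0.23.

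Igfbp4 (NCBI gene 16010, chromosome 11, 99039931 to 99052655, plus strand) encodes an inhibitory binding protein that the protease encoded by Pappa cuts. It had 38 and 247 counts in KO1 and KO2 (1.75 and 11.2 TPM), against 55, 61 and 51 counts in WT1, WT2 and WT3 (2.47, 2.74 and 2.31 TPM). KO1 was the lowest library and KO2 stood 6.42-fold above it, the reverse of Igfbp3. A ratio between KO1 and KO2 of this size or more was found for 0.78% of all tested genes. Igfbp4 did not pass (log2 change 1.35 ± 0.71 (SE), 95% interval -0.43 to 3.14, adjusted p = 0.18, edgeR). It changed by 2.13 without KO1 and by -0.53 without KO2.

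Igfbp7 (NCBI gene 29817, chromosome 5, 77349240 to 77408045, minus strand), a secreted protein with low affinity for the ligands, was the most abundant member. It was at 868 and 398 TPM in KO1 and KO2, against 866, 932 and 875 TPM in WT1, WT2 and WT3. KO1 lay within the WT range, and KO2 was the only library outside it. Igfbp7 did not pass (log2 change -0.47 ± 0.32 (SE), 95% interval -1.28 to 0.34, adjusted p = 0.286, edgeR), and without KO1 it changed by -1.15. Polr2b overlaps Igfbp7 on the opposite strand, so their reads may not be fully separated.

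Igfbp6 (NCBI gene 16012, chromosome 15, 102144186 to 102149512, plus strand), which prefers Igf2, had 19 and 22 counts in KO1 and KO2 (1.44 and 1.65 TPM), against 14, 7 and 9 counts in WT1, WT2 and WT3 (1.07, 0.54 and 0.69 TPM). The groups did not overlap, and neither did they for Igfbp2, so 2 of 8 tested members had no overlap in CPM, against 66.4% of all tested genes. Igfbp6 did not pass (log2 change 1.03 ± 0.38 (SE), 95% interval 0.09 to 1.97, adjusted p = 0.078, edgeR), and it did not pass in any of its 15 alternatives (adjusted p = 0.0581 to 0.318). Igfbp5 (NCBI gene 16011, chromosome 1, 72858065 to 72874865, minus strand), the neighbour of Igfbp2, had 1 and 2 counts in KO1 and KO2, against 0, 1 and 1 counts in WT1, WT2 and WT3. It was not tested, and a difference was not detectable at this depth.

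**Figure D2:**
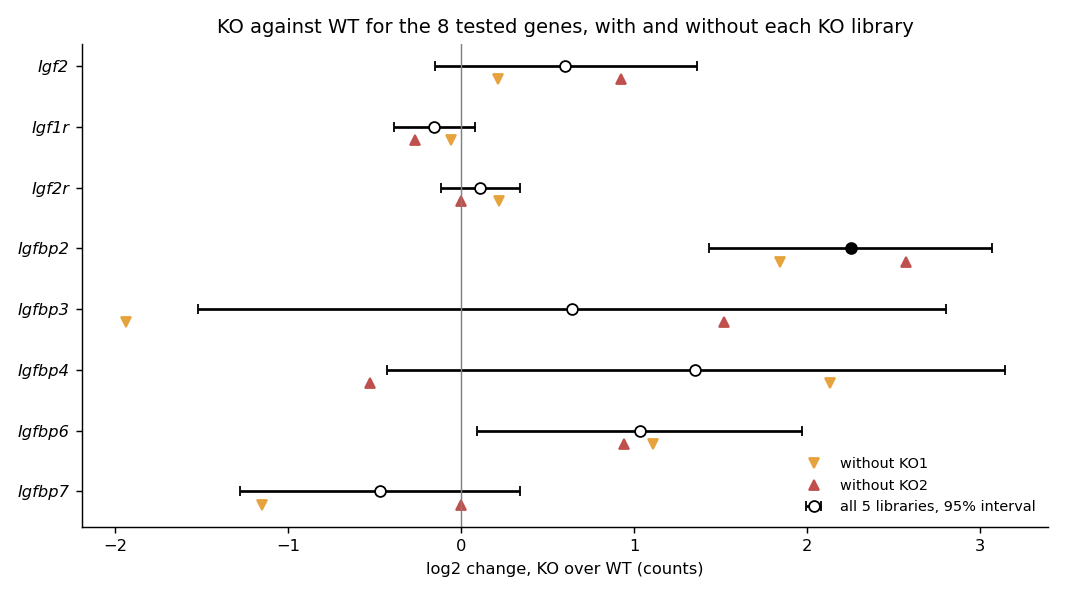
Log2 change of KO over WT (horizontal axis) for the 8 tested genes, with all 5 libraries (circle, with its 95% interval; filled where the adjusted p is under 0.05), without KO1 (orange, pointing down) and without KO2 (red, pointing up). Igfbp2 lies above 1.43 over its whole interval. The points without KO1 and without KO2 lie on opposite sides of 0 for Igfbp3, at -1.94 and 1.52, for Igfbp4, at 2.13 and -0.53, and for Igf2r, at 0.22 and -0.0038.

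Set against the WT mean, KO1 and KO2 lay on opposite sides in CPM for 3 of the 8 tested members, Igfbp3, Igfbp4 and, with log2 differences of only -0.01 and 0.23, Igf2r. They lay on the same side for the other 5. Of the 8 tested members 3 differed by at least 2-fold between KO1 and KO2, namely Igfbp3, Igfbp4 and Igfbp7, against 10.7% of all tested genes. The median absolute log2 ratio between KO1 and KO2 was 0.69 over the tested members and 0.29 over all tested genes. These differences are between 2 libraries of 1 group and have no replicate check.

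**Figure D3:**
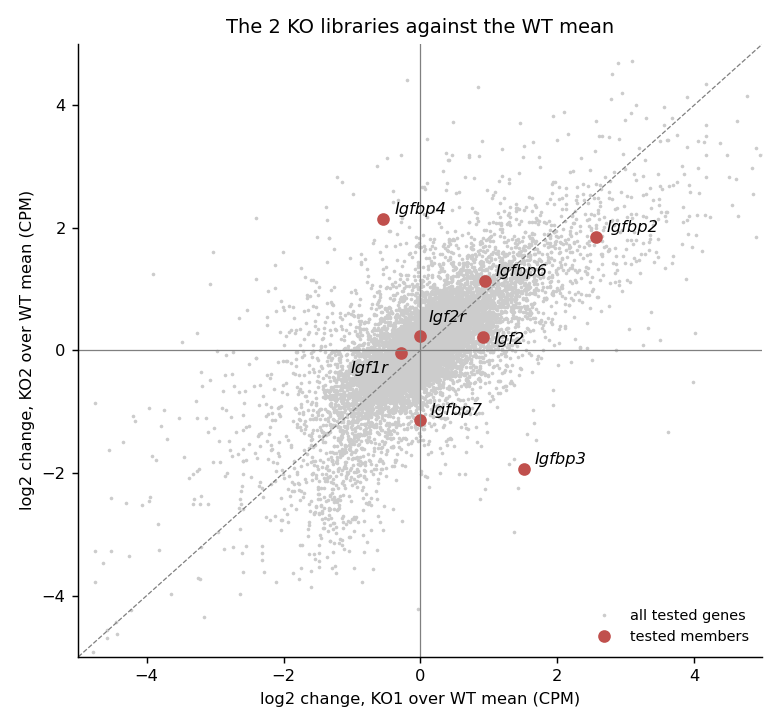
Log2 change in CPM of KO1 (horizontal axis) and of KO2 (vertical axis) over the WT mean, for the 8 tested members (red) and all tested genes (grey; 31 lie outside the axes, and grey points have 0.1 CPM added). The dashed line marks equal change. Igfbp2 is at 2.56 and 1.85, Igfbp3 at 1.51 and -1.94 and Igfbp4 at -0.54 and 2.14.

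As a pool, the 6 binding protein mRNAs summed to 1709 and 651 TPM in KO1 and KO2, against 1116, 1170 and 1129 TPM in WT1, WT2 and WT3. KO1 lay above and KO2 below all WT libraries. Igfbp7, Igfbp3 and Igfbp2 made up 98.0 to 99.8% of this sum in all 5 libraries, in different proportions. No test was run on these shares. Igfbp2 took 17.7 and 29.3% of the sum in KO1 and KO2, against 3.77, 3.82 and 6.27% in WT1, WT2 and WT3. Igfbp7 took 50.8 and 61.2% in KO1 and KO2, against 77.6, 79.7 and 77.6% in WT1, WT2 and WT3. The share of Igfbp2 was higher and that of Igfbp7 lower in both KO libraries than in every WT library. In TPM, Igfbp7 lay within the WT range in KO1 and below it in KO2. Igfbp3 took 31.4 and 7.57% in KO1 and KO2, against 18.3, 16.2 and 15.9% in WT1, WT2 and WT3. The ratio of Igfbp2 to Igfbp3 TPM was 0.563 and 3.87 in KO1 and KO2, against 0.206, 0.236 and 0.394 in WT1, WT2 and WT3.

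**Figure D4:**
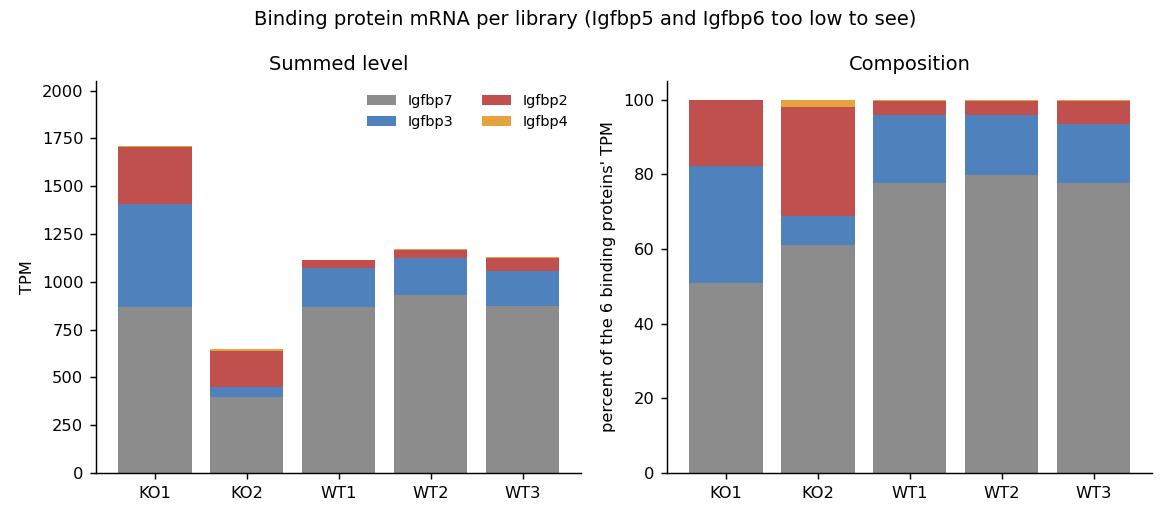
Binding protein mRNA in each library, as summed TPM (left) and as a percentage of the TPM of all 6 (right), for Igfbp7, Igfbp3, Igfbp2 and Igfbp4. The sum is 1709 and 651 TPM in KO1 and KO2 and 1116 to 1170 TPM in WT, and the Igfbp2 share is larger in both KO libraries.

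Of 13 listed genes that modulate the ligands or the binding proteins, 12 were in the table and 8 tested. Of these 1 rose, 2 fell and 5 did not pass, a share close to the 40.8% called over all tested genes, with a median log2 change of -0.10. Igf2bp1, Igf2bp2 and Igf2bp3 encode proteins that bind the Igf2 mRNA. Igf2bp3 was at 0.57 and 0.51 TPM in KO1 and KO2, against 15.1, 15.6 and 17.4 TPM in WT1, WT2 and WT3, and fell by 4.97 ± 0.14 (SE) on the log2 scale (adjusted p = 0.000223, edgeR). Igf2bp2 fell by 0.85 ± 0.10 (SE), at 19.0 and 16.8 TPM in KO1 and KO2 and 31.1, 31.9 and 35.7 TPM in WT1, WT2 and WT3 (adjusted p = 0.00414, edgeR). Igf2bp1, added after its values were seen, did not pass, at 8.24 and 7.95 TPM in KO1 and KO2 and 8.99, 8.02 and 9.09 TPM in WT1, WT2 and WT3 (log2 change -0.08 ± 0.09 (SE), adjusted p = 0.499, edgeR). Htra1, a secreted serine protease that cuts matrix and binding proteins, was at 1955 and 1691 TPM in KO1 and KO2, against 1270, 1241 and 1234 TPM in WT1, WT2 and WT3. Htra1 rose by 0.57 ± 0.11 (SE) on the log2 scale (adjusted p = 0.0143, edgeR), a call that was lost when WT1, WT2 or WT3 was left out. Igfals, the acid-labile subunit of the circulating complex, did not pass, at 3.47 and 1.12 TPM in KO1 and KO2 and 1.05, 1.41 and 1.09 TPM in WT1, WT2 and WT3. Stc2, which encodes an inhibitor of pappalysin proteases and was chosen after its values were seen, was at 11.9 and 80.6 TPM in KO1 and KO2, against 50.3, 53.4 and 53.3 TPM in WT1, WT2 and WT3. KO1 was the lowest library and KO2 the highest, and Stc2 did not pass (log2 change -0.16 ± 0.71 (SE), adjusted p = 0.873, edgeR).

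Downstream of the receptors, 17 of 45 tested genes of insulin and IGF signalling passed, 8 higher and 9 lower in KO, and 28 did not, a share close to that over all genes. Their median log2 change was -0.03. The count was 3, 4 and 4 without WT1, WT2 or WT3, and 9 with a separate spread per group. The phosphatase gene Ptpn1, whose product switches off the insulin receptor, fell by 0.48 ± 0.07 (SE; adjusted p = 0.00694, edgeR). Mapk3, which encodes the MAP kinase ERK1, rose by 0.59 ± 0.09 (SE; adjusted p = 0.00767, edgeR), and among the fits with 1 library left out this call was lost without WT1. Insr, described above, was also among the genes of the list with the smallest p.

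Of 10 tested imprinted growth genes other than Igf2, Igf2r and Grb10, 2 fell, 0 rose and 8 did not pass, against 20.4% of all tested genes called lower and 40.8% called in either direction. Their median log2 change was -0.62. The count was 1 without WT2 or with a separate spread per group. Peg3, a paternally expressed zinc finger gene, was at 0.86 and 3.0 TPM in KO1 and KO2, against 14.5, 17.5 and 20.9 TPM in WT1, WT2 and WT3, and fell by 3.14 ± 0.54 (SE) on the log2 scale (adjusted p = 0.0097, edgeR). Plagl1, a zinc finger factor known in the mouse to activate Igf2, was at 8.65 and 7.63 TPM in KO1 and KO2, against 12.4, 14.7 and 17.9 TPM in WT1, WT2 and WT3. Plagl1 fell by 0.86 ± 0.17 (SE) on the log2 scale (adjusted p = 0.0154, edgeR), a call lost when WT2 was left out and when each group had its own spread (0.142, the highest adjusted p over its alternatives). Phlda2 and Cdkn1c, which restrain placental and fetal growth, did not pass, with log2 changes of -0.95 and -0.88.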

How the data were processed

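RNA-seq of 2 KO and 3 WT libraries was analysed from 1 deposited table. Per the submitters' processing notes, the authors estimated the expected counts with RSEM 1.3.1 on GRCm38.p6; aligner and strand setting were not given in the sources used here. Per the file headers, the authors deposited TPM, which scale by transcript length within a library. FPKM columns were not used, and 0 columns belonged to no labelled sample. RSEM divides reads shared between genes, so 32.1 to 34.0% of counts were not whole. Strands are those of GENCODE M21, since the table's strand differed for Igf2, Igf2r and Igfbp7.

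Expected counts were rounded to whole numbers. The test was edgeR 4.0.16 under R 4.3.3 (filterByExpr by group, TMM factors 0.988 to 1.02, quasi-likelihood test, two-sided, Benjamini-Hochberg over 12957 tested genes, threshold 0.05), with no covariate. Standard errors and 95% intervals were derived from the test statistic. The fit was tested on simulated data. Alternatives used other scalings and count filters, DESeq2 1.42.0, limma 3.58.1 (voom, with and without a separate spread per group, and log2(TPM + 1) or log2(TPM + 0.1)), the replicate number as a block, and each library left out. The members and lists were chosen with earlier results of these data known. Named genes are the members, Angptl4, the 4 smallest p of each of 3 pathway lists and the 3 genes closest in profile to the called member with the largest rise (no member was called lower); Krt5, Krt14, Stc2, Igf2bp1 and overlapping genes were chosen after their values were seen. One gene that the rule names is not reported here.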

Additional observations from a re-analysis of the deposited data

How the results depend on the processing

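Igfbp2 kept its direction and its call in all 16 alternatives. Genes that passed numbered 5286, against 3192 (24.6%) with a separate spread per group, 1598 with the replicate number as a block, and 1957 to 8068 with 1 library left out. For the members the count of 1 ranged from 1 to 5, for modulators the count of 3 from 2 to 5, for signalling the count of 17 from 3 to 30 and for imprinted growth genes the count of 2 from 1 to 6 when 1 library was left out. The upper ends of these ranges, and of that for all genes, come from fits that keep a single KO library. They do not measure how stable the counts are. Leaving out a WT library gave 1 member, 2 modulators, 3 to 4 signalling genes and 1 to 2 imprinted growth genes. Over all genes it gave 1957 to 2282. With a separate spread 9 signalling and 1 imprinted genes passed, and with the replicate block 3 and 1. The numbers 1 and 2 are shared by KO and WT libraries, but nothing in the labels pairs them, and the deviations of same-numbered libraries from their group means correlated at 0.00714 and 0.0676. The block left the Igfbp2 call in place, while Ptpn1, Htra1 and Mapk3 (adjusted p = 0.0829, 0.201 and 0.0765, edgeR, each the highest over that gene's alternatives) and Plagl1 did not pass with it.

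The direction of Igfbp3 was reversed with limma-voom (-0.21, and -0.21 with a separate spread), the replicate block (-0.24), log2(TPM + 1) with and without a filter (-0.22 and -0.22) and log2(TPM + 0.1) (-0.23). With 1 library left out its log2 change ran from -1.94 to 1.52, that of Igfbp4 from -0.53 to 2.13 and that of Igf2r from -0.0038 to 0.22. The limma values average logs, and edgeR's average counts. The replicate block was also an edgeR fit, but one that compared libraries of the same number. WT3 shares its number with no KO library, so it did not inform that change. Fold changes on log2(TPM + 1) understate low genes. Igf2 and Igfbp6 were removed by the stricter count filter, and Igf1 and Igfbp5 by the count filter used. Fits that keep a single KO library take its spread from the WT libraries. Depth limits Igf1 and Igfbp5, which had 0 to 2 counts in each library.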
